A study of Mus musculus with 24 samples.

Results

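The regions described here are constitutive distal peaks: stretches of open chromatin that lie away from promoters and were detected in every library of an ATAC-seq experiment on mouse macrophages. ATAC-seq uses a transposase that cuts and tags accessible DNA, so that a region collecting many sequenced fragments is read as open. A consensus peak was taken into the set when it lay on chromosomes 1 to 19, was shorter than 2000 bp, lay more than 5 kb from every protein-coding transcription start site (TSS) of the GENCODE vM21 basic annotation, and was overlapped by an entry in each of the 24 lists of broad peaks, 1 per library. This gave 31702 members among 184158 consensus peaks (17.2%). Of the 145068 short distal peaks on these chromosomes, 21.9% were members, while 113366 were listed in 1 to 23 libraries only. The set was therefore selected on measured peak calls. Its levels in the lists are given as a description, and a region that closed fully in any library could not be a member, which limits how far a member can fall. Likewise, a region that opened only with LPS could not be a member, since it would be missing from the unstimulated lists, so regions of that kind lie outside the set.

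The cells were bone marrow-derived macrophages (BMDMs) of WT mice (C57/B6/J) and of AhR-KO mice (B6.129-Ahr tm1Bra /J), each either unstimulated or treated with LPS, a component of the bacterial outer membrane that activates macrophages. Each of the 4 groups held 6 libraries from 6 animals, both sexes were used, and whether unstimulated and LPS cultures came from the same animals is not given in the sources used here. AhR, the aryl hydrocarbon receptor, acts as a transcription factor that binds small molecules and pairs with ARNT on DNA. All cultures grew with 10% serum, GM-CSF at 10 ng/ml and TGF-β at 2 ng/ml, conditions meant to bring marrow cells close to alveolar macrophages, and stimulated cultures received LPS (97 EU/ml) from day 6, over 24 h. A calcium ionophore at 5 µM for 10 min followed, and the labels attach this text, LPS included, to all 24 libraries. The AhR-KO allele is a null in the whole body from before birth, so the marrow donors lacked the receptor throughout development, and DNA of the 129 strain surrounds the Ahr gene on chromosome 12. The allele replaces exon 2 of Ahr, and 0 consensus peaks overlapped that exon, so these counts do not check the disruption. The peak over the Ahr TSS, outside that exon, ran from 20.2 to 24.6 CPM in WT and 11.5 to 15.1 in AhR-KO unstimulated libraries, and from 18.99 to 22.2 and 11.9 to 16.8 CPM with LPS, in CPM (counts per 1e6 counts after TMM normalization).

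Distal open regions include enhancers, which raise transcription of genes at a distance, and insulators, at which the zinc finger protein CTCF holds chromatin loops in place. In macrophages the lineage factor PU.1 opens enhancers together with C/EBP, RUNX, AP-1 and IRF proteins. A signal such as LPS brings AP-1 and NF-kB to part of these regions and to new ones, while CTCF sites are known as largely shared between cell types and states.

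Sequences were read from GRCm38, the assembly behind mm10, for members on which the results below turn. Each run is 120 bases around 1 motif match, written 5′ to 3′ on the strand that carries the match, and the capitals mark the match. The first pair are the CTCF core matches of members with high levels per length, shown because members with this motif had the smallest share of calls in all 4 comparisons between 2 groups. The Rassf7 match is exact and its peak was called in no comparison. The Specc1l match has 1 mismatch, and its peak was itself called higher in AhR-KO without LPS.
Rassf7, CTCF, chr7:141221887-141222006, minus strand: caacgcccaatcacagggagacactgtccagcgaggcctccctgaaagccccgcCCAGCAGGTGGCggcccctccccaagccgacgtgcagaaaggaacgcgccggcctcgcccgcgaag
Specc1l, CTCF, chr10:75222583-75222702, minus strand: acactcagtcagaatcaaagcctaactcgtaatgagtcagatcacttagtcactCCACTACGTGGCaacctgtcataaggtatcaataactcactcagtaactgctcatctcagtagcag
The following pair carry the PU.1 motif GAGGAAGT and belong to members among the highest per length.
Ptprc, PU.1, chr1:137751662-137751781, plus strand: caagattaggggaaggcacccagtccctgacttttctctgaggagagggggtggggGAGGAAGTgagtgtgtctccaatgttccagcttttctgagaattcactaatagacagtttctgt
Btg2, PU.1, chr1:134065280-134065399, plus strand: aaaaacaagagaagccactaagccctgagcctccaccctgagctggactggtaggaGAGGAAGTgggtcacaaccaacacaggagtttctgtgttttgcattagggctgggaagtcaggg
The AP-1 motif TGANTCA stands in a member that was higher in AhR-KO cultures and in one that was lower in AhR-KO cultures with LPS.
Nrp2, AP-1, chr1:62788692-62788811, plus strand: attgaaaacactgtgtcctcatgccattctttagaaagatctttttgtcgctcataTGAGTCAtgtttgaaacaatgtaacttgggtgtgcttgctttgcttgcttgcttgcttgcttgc
Dhrs3, AP-1, chr4:144909004-144909123, plus strand: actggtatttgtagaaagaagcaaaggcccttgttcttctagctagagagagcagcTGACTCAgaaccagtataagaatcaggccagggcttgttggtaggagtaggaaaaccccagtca
The NF-kB motif GGGNNTTCC stands in a member that rose strongly with LPS and in one that fell.
St3gal1, NF-kB, chr15:67139020-67139139, minus strand: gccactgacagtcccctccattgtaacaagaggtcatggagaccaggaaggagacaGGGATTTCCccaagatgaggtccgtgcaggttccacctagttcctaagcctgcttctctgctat
Usp31, NF-kB, chr7:121636282-121636401, plus strand: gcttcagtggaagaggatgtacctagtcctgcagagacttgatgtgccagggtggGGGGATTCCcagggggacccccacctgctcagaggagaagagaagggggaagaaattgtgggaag
The AhR motif TNGCGTG stands in the 3 members with this motif that had the smallest p for the genotype effect without LPS.
Cap1, AhR, chr4:122903739-122903858, minus strand: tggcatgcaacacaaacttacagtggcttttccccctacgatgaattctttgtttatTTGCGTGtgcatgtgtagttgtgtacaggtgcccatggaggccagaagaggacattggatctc
Btbd10, AhR, chr7:113295224-113295343, minus strand: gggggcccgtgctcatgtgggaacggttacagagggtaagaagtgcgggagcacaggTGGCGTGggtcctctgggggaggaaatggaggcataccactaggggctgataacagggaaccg
Trim8, AhR, chr19:46455831-46455950, plus strand: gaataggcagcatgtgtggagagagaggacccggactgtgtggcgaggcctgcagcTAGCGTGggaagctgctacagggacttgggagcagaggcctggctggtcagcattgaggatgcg
Both strands of the 300 bases at the centre of each peak were searched. A match is a description of the letters and does not show that a protein was bound.

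Members were longer and higher than other short distal peaks, a difference that the rule itself favours. Their median length was 908 bp against 414 bp for the short distal peaks in 1 to 23 lists. Their median level was 8.01 CPM, averaged over the 24 libraries, against 1.196 CPM, with 5th and 95th percentiles of 3.04 and 28.1 CPM and a full range of 1.202 to 171 CPM. The median SD between libraries of a group was 0.164 on the log2 scale against 0.331. Together the members covered 31.5 Mb, which is 24.7% of all bases in consensus peaks. Their levels were not evenly spread: the top 1% (317 members) held 5.07% of the CPM of the set, and the top 10% held 28.8%.

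The rule did not use sequence or gene context beyond the TSS distance. Members held 4.05 CpG dinucleotides per 300-base centre and a GC content of 46.7%, against 2.84 and 45.5% in the other short distal peaks, while peaks within 5 kb of a TSS held 12.2 CpG. Repeats covered 15.96% of the member centres and 21.1% of the others. By annotation, 48.9% of the members lay in introns of protein-coding genes, 40.8% between genes, 7.44% in lncRNA genes, 1.57% over UTRs and 1.29% over coding exons. The median distance to a TSS was 31.5 kb, 65.0% lay beyond 20 kb and 17.5% beyond 100 kb. Neighbouring members were a median of 19.5 kb apart, and 33.8% of the gaps were under 10 kb. The share of short distal peaks that were members ran from 20.6% on chromosome 18 to 24.1% on chromosome 19, so no chromosome stood out.

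Motif shares in the members are set here beside those of the other short distal peaks, which are shorter and weaker, over windows of equal length. The CTCF core consensus, with up to 1 mismatch, was found in 9.08% of members, 8.93% of the other short distal peaks and 8.66% of all peaks on chromosomes 1 to 19. Exact matches to it were in 2.99% of members, 2.29% of the others and 2.29% of all peaks. The PU.1 motif was in 9.33% of members against 7.36% and 7.33%. C/EBP (TTGCNNAA) was in 18.2% against 15.9% and 15.6%. AP-1 was in 18.8% against 19.4% and 17.9%. RUNX (TGTGGTT) was in 11.2% of both classes and in 10.6% of all peaks. NF-kB was in 4.91% against 5.17% and 5.24%, and an IRF motif of paired half-sites was in 4.99% against 4.66% and 4.56%. The AhR motif was in 2.96% of members, 2.30% of the others and 2.87% of all peaks, and an E-box (TCACGTG), the motif of MiT/TFE factors, was in 1.99%, 1.57% and 1.78%. In 12875 members none of these 9 motifs was found in the window, which says only that those letters were not in it. Over whole peaks, which are longer in members, the shares lay further apart, such as 20.5% against 10.53% for PU.1, 42.5% against 27.9% for AP-1 and 8.94% against 3.84% for the AhR motif.

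The thresholds of the rule cut through a continuous range. The longest member, at chr13:13516563-13518560 upstream of Lyst, counted 1999 bp at 10.8 CPM, and the shortest peak left out for length, at chr1:193921918-193923916, counted 2000 bp at 6.28 CPM. The member closest to a TSS lay 5001 bp from that of Rabac1 at 8.89 CPM, and the farthest peak left out for distance lay 4998 bp from that of Syde2 at 8.11 CPM. The weakest list entry over a member had a -log10 q of 1.01, in a peak nearest to Klf14 with a mean of 5.19 CPM. On the other side, 5197 peaks met every other condition but were missing from 1 list, with a median level of 3.61 CPM. For 1957 of these (37.7%) the missing list was that of WT unstimulated replicate 5, whose total count was the lowest, and for 643 (12.4%) that of WT unstimulated replicate 1. The strongest of them, at chr3:50402253-50403075 in an intron of the cystine transporter gene Slc7a11, had a mean of 26.97 CPM, and ran from 6.86 to 10.6 (median 8.70) in WT unstimulated and from 40.8 to 47.00 (median 43.3) in WT LPS libraries.

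Depth and sample identity bear on all of these values. Summed over consensus peaks, counts ran from 8.54 M to 34.6 M a library, with WT unstimulated libraries at 8.54 to 23.1 M and WT LPS libraries at 25.1 to 34.6 M, so depth moved with LPS in WT. In AhR-KO the totals were 18.9 to 25.7 M without and 22.4 to 28.5 M with LPS. The part of depth in the results was not tested beyond normalization. Of 8 macrophage genes, 7 had a tested peak over the TSS, at 9.55 to 29.1 CPM, among them Csf1r, Adgre1, Cd68 and Itgam, while Spi1 had none. The median over all tested TSS peaks was 19.7 CPM. No tested TSS peak was found for 4 of 4 B cell genes and 4 of 4 mast cell or basophil genes, whereas Cd5 (1 of 4 T cell genes, 11.9 CPM), S100a8 (1 of 4 neutrophil genes, 19.4 CPM), Zbtb46 and Flt3 (2 of 4 dendritic cell genes, 20.1 and 7.36 CPM), and Epcam and Krt18 (2 of 4 epithelial or endothelial genes, 5.22 and 0.747 CPM) had one. Over the 4 groups, the summed level of a list was 20.5 to 30.7 CPM for dendritic cell genes, 16.2 to 24.0 CPM for neutrophil genes, 9.72 to 13.3 CPM for T cell genes, 5.00 to 7.18 CPM for epithelial or endothelial genes and 131 to 178 CPM for macrophage genes. Some moved with genotype: Flt3 had 9.07 CPM in WT and 4.09 in AhR-KO unstimulated libraries and 11.6 and 4.73 with LPS, and the dendritic cell sum was 30.7, 29.2 and 29.6 CPM in WT unstimulated, AhR-KO unstimulated and WT LPS libraries and 20.5 in AhR-KO LPS libraries. The part of these genes in the shifts below was not tested.

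The members held about the same portion of each library, with a small drop under LPS. In WT unstimulated libraries, 34.2% to 35.1% of the counts fell in members (median 34.9%, mean 34.8% ± 0.307, SD, n = 6). In AhR-KO unstimulated libraries it was 34.7% to 36.3% (median 35.96%, mean 35.8% ± 0.610). With LPS the share was 31.9% to 33.7% in WT (median 32.8%, mean 32.8% ± 0.619) and 32.4% to 33.8% in AhR-KO (median 33.2%, mean 33.1% ± 0.459). All LPS libraries of a genotype lay below all of its unstimulated libraries, while the genotypes overlapped in both conditions. The set was chosen on peak calls in these same libraries. Regions that opened only with LPS lie outside it, so nothing is read from the lower share with LPS. In bulk cultures, fewer cells with an open region and less cutting of it per cell cannot be told apart.

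**Figure D1:**
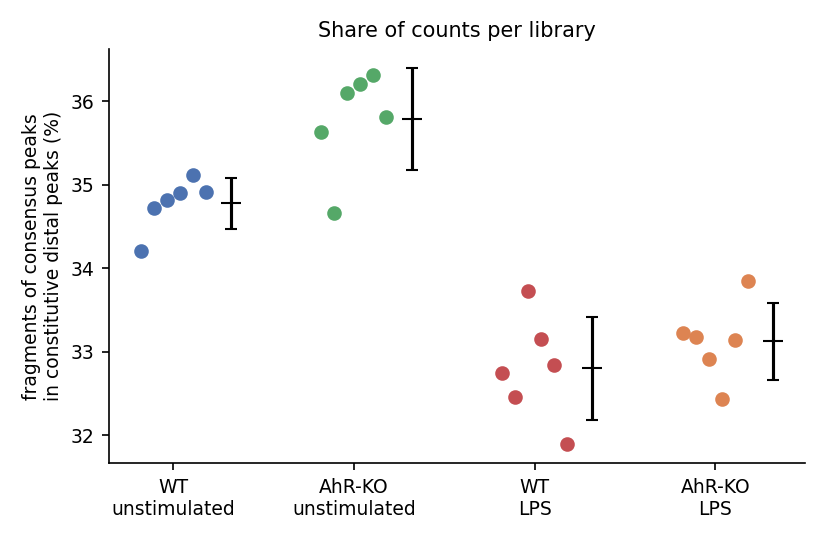
Percent of each library's counts in consensus peaks that fell in constitutive distal peaks, with 1 point per library, by group, and the group mean with its SD over 6 libraries. The unstimulated libraries sit between 34.2% and 36.3% and the LPS libraries between 31.9% and 33.8%.

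Members highest per length stood near genes of varied roles. The highest, at chr16:42874865-42876368 in a lncRNA gene upstream of Zbtb20, a zinc finger repressor, had a mean of 114 CPM per kb over the 24 libraries. Next came peaks nearest to Zfp958, a zinc finger gene (88.2 CPM per kb), Phf19, a Polycomb cofactor (81.5), Catspere2 (81.4), Ptprc, which encodes the leukocyte phosphatase CD45 (79.3), Papss1, which makes the sulfate donor of the cell (76.7), Btg2, an antiproliferative factor (76.1), and Plpp3, a lipid phosphate phosphatase (72.7). The Ptprc peak lay 423239 bp from that TSS, so the nearest gene is a label of position only. The Zbtb20 peak ran from 188 to 215 (median 201) CPM in WT unstimulated, 158 to 176 (median 166) in AhR-KO unstimulated, 141 to 174 (median 152) in WT LPS and 141 to 184 (median 163) in AhR-KO LPS libraries. WT unstimulated libraries were above all others for this peak, at a difference below the 1.5-fold that a call requires. All 8 of these peaks had a fold between their highest and lowest group mean of 1.17 to 1.71.

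Being listed in every library did not make a member's level constant. The fold between the highest and the lowest group mean had a median of 1.66, with 5th and 95th percentiles of 1.16 and 3.73 and a highest value of 17.8. In 12117 members (38.2%) it was below 1.5, in 1233 at least 4 and in 78 at least 8. The highest group mean was that of WT unstimulated in 9372 members (29.6%), AhR-KO unstimulated in 9851 (31.1%), WT LPS in 4690 (14.8%) and AhR-KO LPS in 7789 (24.6%). Over all 4 comparisons between 2 groups, with a call meaning an adjusted p of at most 0.05 in edgeR's quasi-likelihood test and a fold change of at least 1.5, 14617 members (46.1%) were called in none and 17085 (53.9%) in at least 1. There were 10317 members (32.5%) called in an LPS comparison and in no genotype comparison, 2498 (7.88%) with the opposite pattern, and 706 called in all 4. These joint counts were not made over all tested peaks. For genotype, the single comparisons called 14.8% of members without and 12.7% with LPS, against 22.6% and 26.5% of all tested peaks. For LPS they called 33.8% of members in WT and 39.8% in AhR-KO, against 47.0% and 48.8%.

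LPS changed more members than genotype did, and more of them fell than rose. In WT, 4089 members rose (12.9%, against 25.4% of all 174193 tested peaks) and 6617 fell (20.9%, against 21.6%). In AhR-KO, 4647 rose (14.7%, against 27.3%) and 7963 fell (25.1%, against 21.5%). In the other short distal peaks, the class into which the rule puts regions absent from any unstimulated list, 32.2% were higher and 23.9% lower in WT and 34.6% higher and 21.2% lower in AhR-KO, so the contrast of the classes restates the rule and nothing is read from it. The median log2 fold change of the members was -0.13 in WT and -0.12 in AhR-KO, beside -0.01 and 0.05 over all tested peaks. At a fold of at least 2, 1847 members were higher and 2289 lower in WT, and 2191 higher and 3656 lower in AhR-KO. The split depends on what is held level: with library factors computed on the members themselves, 5061 rose and 5071 fell in WT and 5968 rose and 6338 fell in AhR-KO, a scaling that moved the median of all tested peaks by 0.12 and 0.13 and sets the members' own median near 0 by construction.

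The groups of 6 did not overlap in 13987 members in WT (44.1%, against 38.7% of all tested peaks) and in 17339 in AhR-KO (54.7%, against 45.6%). The LPS comparisons of the genotypes share no libraries. Of the called members, 3260 rose and 5460 fell in both, which is 81.4% of the WT calls and 69.2% of the AhR-KO calls, and 9 were called in opposite directions.

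**Figure D2:**
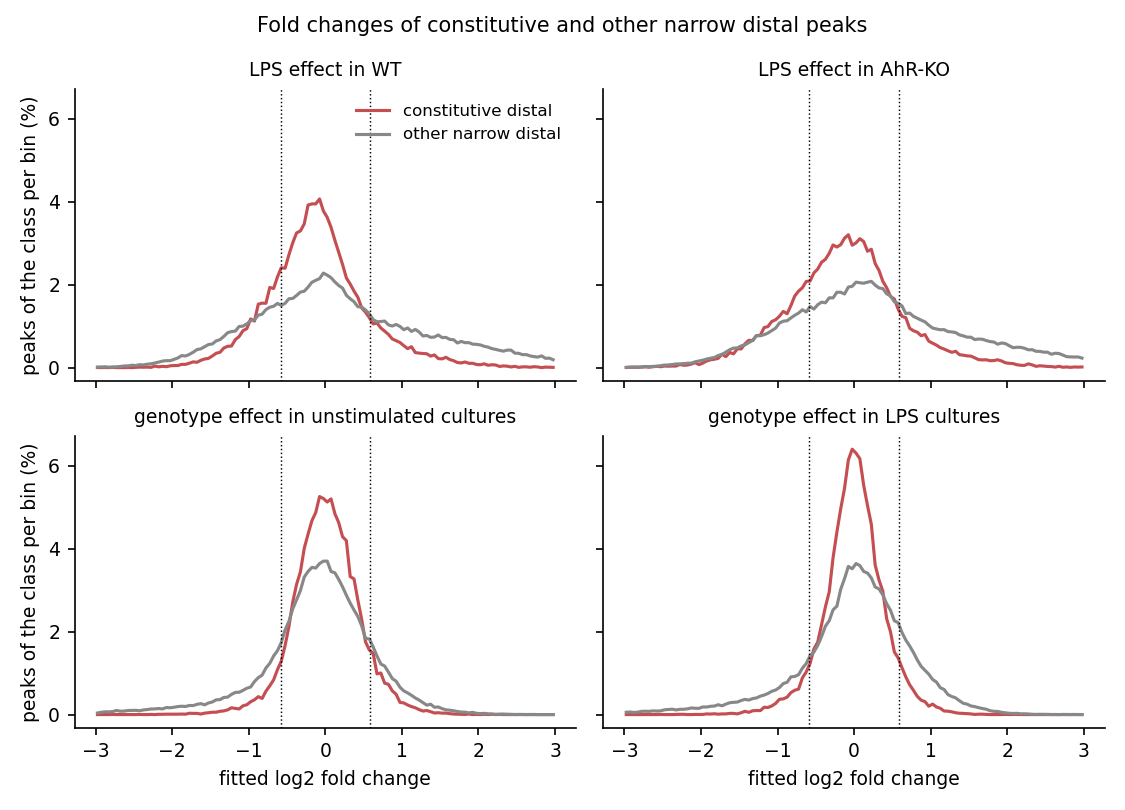
Distributions of log2 fold change in the 4 comparisons between 2 groups for constitutive distal peaks and for other short distal peaks, as shares of each class, with dotted lines at a fold of 1.5 and values beyond 3 on either side not drawn. The constitutive peaks form the narrower distribution, with medians of 0.01 and 0.00 for the genotype effects and -0.13 and -0.12 for the LPS effects.

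The members that rose most clearly with LPS went from a low but listed level to a high one. The peak at chr6:38374236-38375317, upstream of the intraflagellar transport gene Ttc26, ran from 3.50 to 4.31 (median 3.90) CPM in WT unstimulated and from 30.1 to 40.7 (median 33.1) in WT LPS libraries. In AhR-KO it ran from 3.05 to 4.43 (median 3.94) without and from 44.1 to 49.1 (median 46.00) with LPS. No LPS library came near an unstimulated one, and the log2 fold change, given here and below with its standard error, was 3.11 ± 0.09, edgeR adjusted p = 3.11e-26 in WT and 3.6 ± 0.08, edgeR adjusted p = 1.79e-28 in AhR-KO.

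The peak at chr14:118109160-118111040, in a lncRNA gene near Tgds, ran from 3.18 to 5.82 (median 4.35) CPM in WT unstimulated to a range of 35.9 to 46.5 (median 40.8) with LPS, and in AhR-KO from 3.78 to 6.26 (median 4.43) to 44.7 to 51.6 (median 49.3). Its log2 fold change was 3.24 ± 0.10, edgeR adjusted p = 3.68e-25 in WT. St3gal1 encodes a sialyltransferase that caps O-glycans, and the member at chr15:67138498-67139496 in its intron, printed above with its NF-kB match, ran from 2.22 to 3.27 (median 2.87) CPM in WT unstimulated and from 22.1 to 32.3 (median 25.9) in WT LPS libraries. That is a log2 fold change of 3.26 ± 0.10, edgeR adjusted p = 1.8e-24. In AhR-KO the ranges were 1.82 to 2.38 (median 1.95) and 25.04 to 28.6 (median 26.9) CPM, again without overlap.

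The members that fell most clearly with LPS lay near Hs3st2, B3gnt7 and Usp31. Hs3st2 encodes a heparan sulfate sulfotransferase, and the member at chr7:121516738-121517859, 124447 bp from its TSS, ran from 42.02 to 49.9 (median 46.2) CPM in WT unstimulated and from 5.54 to 8.53 (median 6.65) in WT LPS libraries. In AhR-KO it ran from 38.5 to 42.1 (median 40.5) and from 5.21 to 6.19 (median 5.498) CPM. The groups were far apart in both genotypes, with log2 fold changes of -2.77 ± 0.08, edgeR adjusted p = 2.2e-26 in WT and -2.84 ± 0.08, edgeR adjusted p = 9.31e-27 in AhR-KO.

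B3gnt7 encodes an N-acetylglucosaminyltransferase, and its member lay at chr1:86262991-86264322 in an intron of Armc9. It ran from 34.6 to 38.2 (median 35.6) CPM in WT unstimulated and 5.51 to 7.04 (median 6.39) in WT LPS libraries, and from 36.6 to 53.6 (median 44.1) and 3.81 to 5.03 (median 4.49) in AhR-KO. The fall was -2.49 ± 0.08, edgeR adjusted p = 2.9e-24 in WT and -3.33 ± 0.09, edgeR adjusted p = 1.59e-27 in AhR-KO on the log2 scale, and the interaction (the AhR-KO to WT difference with LPS, less the same difference without it) was -0.83 ± 0.12, edgeR adjusted p = 6.55e-06. Usp31 encodes a deubiquitinating enzyme. Its member at chr7:121635729-121637199, which also holds an NF-kB match, ran from 24.8 to 29.6 (median 28.4) CPM in WT unstimulated and 5.19 to 7.58 (median 6.27) in WT LPS libraries, so the same motif stood in a member that rose and in one that fell.

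Members sorted by motif shifted in different proportions with LPS. Of the 5947 members with an AP-1 match, 24.8% rose and 11.3% fell in WT, and 27.04% rose and 14.6% fell in AhR-KO. Of the 1557 with an NF-kB match, 22.7% rose and 14.6% fell in WT, and 20.5% rose and 19.97% fell in AhR-KO. PU.1 members (2959) went the other way, with 8.85% higher and 29.7% lower in WT and 10.8% higher and 33.4% lower in AhR-KO. C/EBP members (5762) had 13.02% higher and 22.5% lower in WT, and RUNX members (3553) had 12.7% and 23.5%. IRF members (1581) had 13.6% higher and 17.5% lower in WT, AhR-motif members (939) 11.1% and 16.7%, and E-box members (630) 12.7% and 18.6%. Members with none of the motifs had 10.9% higher and 23.4% lower.

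CTCF members had the smallest share of LPS calls of the motif classes. Of 2880, 4.58% rose and 8.13% fell in WT, and 9.24% rose and 9.17% fell in AhR-KO. The median level of CTCF members was 4.47 CPM, against 8.01 for all members and 7.70 to 9.11 for the other motifs. The part of this lower level in the share of calls was not tested. The 95% intervals of all 4 comparisons between 2 groups stayed within 1.5-fold in 39.4% of CTCF members (1136), against 24.0% of all members (7606) and 21.4% to 30.7% for the other motifs. CTCF members were still not level in their median: without LPS it was -0.21 on the log2 scale for AhR-KO against WT, the furthest from 0 of the motif classes in that comparison, between -0.14 and -0.23 under the other scalings and beside -0.19 for all tested peaks with the motif, and with LPS in AhR-KO it was 0.10. Among all tested peaks in WT, the balance had the same sign as in members for AP-1 (49.9% higher and 9.05% lower), NF-kB (42.2% and 13.2%), PU.1 (13.9% and 39.9%), RUNX (24.6% and 27.7%), CTCF (9.16% and 9.25%) and no motif (21.2% and 23.6%). It had the opposite sign for C/EBP (25.8% and 24.03%), IRF (30.5% and 17.6%), the AhR motif (19.7% and 17.98%) and the E-box (21.8% and 20.4%). In AhR-KO, all tested peaks with a CTCF match had 15.8% higher and 8.72% lower, and those with NF-kB 37.5% and 14.8%. For AP-1 these shares were 52.9% and 9.04%, and for PU.1 15.7% and 36.8%. The classes overlap, since a peak can hold several motifs. The lower-heavy balance of PU.1, C/EBP, RUNX and no-motif members and the higher-heavy balance of AP-1 members were the same under every scaling tried in both genotypes. With factors computed on the members, CTCF members in WT and IRF, AhR-motif and E-box members in both genotypes turned to more higher than lower. In AhR-KO the near-even balance of CTCF and NF-kB members moved both ways: with factors computed on the members it was 465 higher and 191 lower for CTCF and 399 and 246 for NF-kB, and with relative log expression size factors 224 and 289, and 297 and 342.

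**Figure D3:**
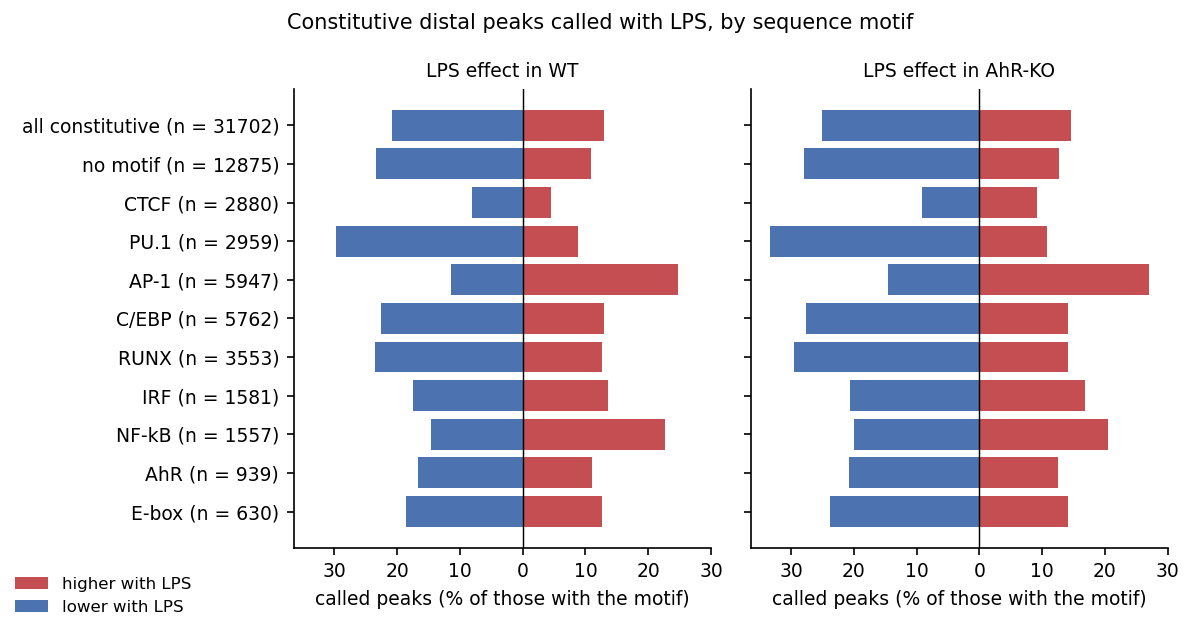
Percent of constitutive distal peaks called higher and lower with LPS, by the motif found in the central 300 bases, in WT and in AhR-KO. PU.1 peaks reach 29.7% and 33.4% lower, AP-1 peaks 24.8% and 27.04% higher, and CTCF peaks stay below 10% in each direction.

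Genotype changed fewer members than LPS. Without LPS, 2606 members were higher in AhR-KO (8.22%, against 9.95% of all tested peaks) and 2078 lower (6.55%, against 12.6%). With LPS, 1916 were higher (6.04%, against 13.4%) and 2099 lower (6.62%, against 13.1%). The median log2 fold changes were 0.01 and 0.00, beside -0.02 and 0.02 over all tested peaks. Groups did not overlap in 9334 members without LPS (29.4%, against 21%) and in 6631 with LPS (20.9%, against 19.6%), so many members differed by less than 1.5-fold with groups apart. The genotype comparisons share no libraries: 1049 members were higher and 876 lower in both, which is 41.1% of the calls without LPS and 47.9% of those with LPS, and 6 were called in opposite directions. Without LPS, the share of calls that were lower was 44.4%, and with relative log expression size factors it was 33.5% (3249 higher, 1639 lower), so the balance between directions moved with the scaling. With LPS it was 52.3%, and the same size factors turned it to 2047 higher and 1996 lower.

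Among the members most clearly higher in AhR-KO were 1 near Nrp2 and 1 near Nrp1, genes of neuropilins, which are co-receptors for semaphorins and VEGF. The member at chr1:62788258-62788965 in an intron of Nrp2 ran from 2.18 to 3.42 (median 2.48) CPM in WT and from 10.99 to 14.2 (median 12.6) in AhR-KO unstimulated libraries, and with LPS from 6.04 to 6.97 (median 6.63) and 13.4 to 15.3 (median 14.9). The genotypes did not overlap in either condition, and the log2 fold change was 2.29 ± 0.10, edgeR adjusted p = 5.7e-19 without LPS and 1.16 ± 0.08, edgeR adjusted p = 2.83e-13 with it. The member at chr8:128164842-128166540, 192744 bp upstream of Nrp1, ran from 17.1 to 22.9 (median 20.5) CPM in WT LPS and from 45.95 to 49.6 (median 48.99) in AhR-KO LPS libraries, a log2 difference of 1.25 ± 0.07, edgeR adjusted p = 2.18e-15. Without LPS it ran from 10.6 to 15.5 (median 12.5) and 19.2 to 22.2 (median 19.9) CPM. The locus as a whole did not run one way: of the 31 members nearest to Nrp1, 3 were higher and 2 lower in AhR-KO without LPS (median -0.02) and 1 was higher and 1 lower with LPS (median 0.00).

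Other members higher in AhR-KO without LPS lay near Clec2l, a C-type lectin-like gene (log2 fold change 1.89 ± 0.09, edgeR adjusted p = 3.49e-17), and in an intron of Ston2, an endocytic adaptor (1.36 ± 0.07, edgeR adjusted p = 4.99e-17). The Ston2 peak ran from 15.2 to 20.2 (median 17.2) CPM in WT and 43.4 to 46.1 (median 44.5) in AhR-KO unstimulated libraries, and with LPS from 20.3 to 26.9 (median 24.03) and 37.6 to 40.7 (median 38.4). The gap between the genotypes narrowed with LPS for both peaks, with interactions of -0.80 ± 0.13, edgeR adjusted p = 3.74e-05 for Clec2l and -0.66 ± 0.09, edgeR adjusted p = 8.15e-06 for Ston2.

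The members most clearly lower in AhR-KO without LPS lay near Spry2, Rasa2 and Sptssa. Spry2 encodes an inhibitor of receptor tyrosine kinase signalling, and the member at chr14:105886571-105887520 ran from 9.77 to 16.2 (median 13.8) CPM in WT and from 2.50 to 3.6 (median 3.13) in AhR-KO unstimulated libraries, a log2 fold change of -2.10 ± 0.12, edgeR adjusted p = 1.28e-15. With LPS its ranges were 4.79 to 6.68 (median 5.20) and 2.04 to 3.25 (median 2.46), so the WT level also fell with LPS. Rasa2 encodes a Ras GTPase-activating protein, and the member at chr9:96649768-96651169 ran from 15.1 to 27.1 (median 21.8) CPM in WT and 6.44 to 7.86 (median 6.95) in AhR-KO unstimulated libraries (-1.62 ± 0.10, edgeR adjusted p = 6.83e-15). With LPS the AhR-KO libraries ran from 12.5 to 16.2 (median 13.7) and the WT libraries from 17.9 to 23.6 (median 19.9), and the interaction was 1.078 ± 0.13, edgeR adjusted p = 7.84e-07. Sptssa encodes a small subunit of serine palmitoyltransferase, the entry enzyme of sphingolipid synthesis, and the member nearest to it, 183274 bp away, had a log2 fold change of -1.89 ± 0.12, edgeR adjusted p = 2.01e-14 without LPS.

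With LPS, the clearest members lower in AhR-KO were those in which LPS lowered accessibility more in AhR-KO than in WT. Dhrs3 encodes a retinal reductase, and the member at chr4:144908699-144909443 in its intron ran from 35.3 to 38.8 (median 35.7) CPM in WT unstimulated, 36.5 to 40.2 (median 39.3) in AhR-KO unstimulated and 27.9 to 32.6 (median 30.1) in WT LPS libraries. In AhR-KO LPS libraries it ran from 11.7 to 15.3 (median 12.8), below every other library. The genotype effect was 0.10 ± 0.06, edgeR adjusted p = 0.193 without LPS and -1.21 ± 0.06, edgeR adjusted p = 3.79e-17 with it, with an interaction of -1.31 ± 0.08, edgeR adjusted p = 7.31e-13.

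The member at chr3:20304384-20305728, upstream of the carboxypeptidase gene Cpb1, ran from 50.99 to 64.2 (median 60.2) CPM in WT unstimulated and 16.2 to 21.2 (median 17.4) in WT LPS libraries, and from 38.1 to 49.3 (median 40.9) and 5.66 to 6.03 (median 5.87) in AhR-KO. No 2 of the 4 groups overlapped, and the genotype effect was -0.49 ± 0.07, edgeR adjusted p = 1.76e-07 without LPS, short of the 1.5-fold limit, and -1.62 ± 0.08, edgeR adjusted p = 1.3e-17 with it. The member at chr9:109021369-109022158, upstream of the apoptosis gene Shisa5 and in an intron of Pfkfb4, showed the same order, with 10.98 to 12.8 (median 11.97) CPM in WT LPS and 4.001 to 5.13 (median 4.47) in AhR-KO LPS libraries (-1.40 ± 0.08, edgeR adjusted p = 1.15e-15). Slc15a4 encodes a lysosomal peptide and histidine transporter that endosomal Toll-like receptors depend on, and the member in its intron at chr5:127607478-127609001 had genotype effects of 0.16 without and -1.02 with LPS, and an interaction of -1.18 ± 0.09, edgeR adjusted p = 8.31e-11.

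**Figure D4:**
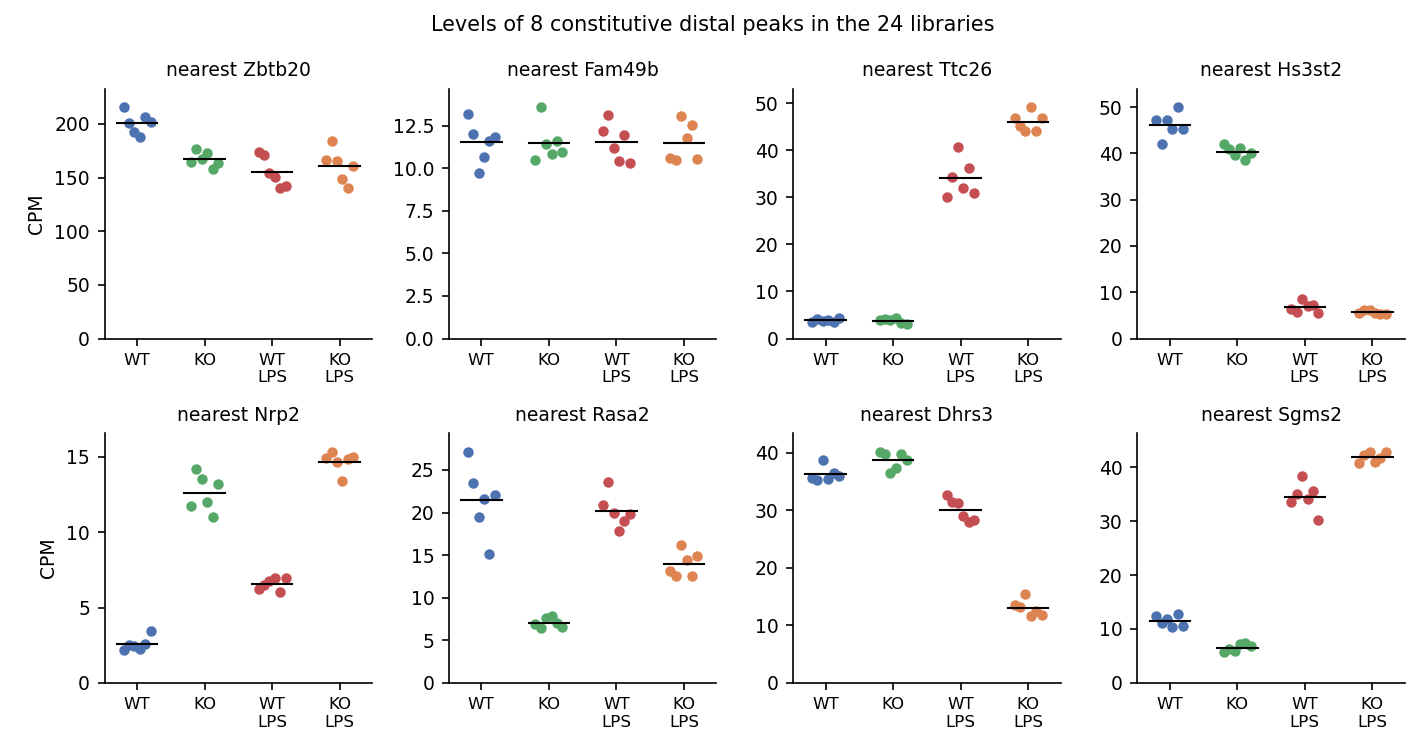
CPM of 8 constitutive distal peaks in the 24 libraries by group, with 1 point per library and a line at each group mean. The Fam49b peak is level at a group mean of 11.5 to 11.6 CPM, the Ttc26 and Sgms2 peaks rise and the Hs3st2 peak falls with LPS in both genotypes, and the Nrp2, Rasa2 and Dhrs3 peaks differ between genotypes in 1 or both conditions.

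The interaction was called in fewer members. It was higher in 1043 (3.29%, against 5.83% of all tested peaks) and lower in 1567 (4.94%, against 4.58%), with a median of -0.01 beside 0.04 over all tested peaks. Sgms2 encodes a sphingomyelin synthase, and the member at chr3:131367376-131367993 in its intron ran from 10.3 to 12.7 (median 11.5) CPM in WT and 5.63 to 7.29 (median 6.60) in AhR-KO unstimulated libraries, and with LPS from 30.2 to 38.3 (median 34.6) and 40.7 to 42.9 (median 41.9). AhR-KO was the lower genotype without LPS and the higher with it, with genotype effects of -0.80 and 0.28, of which the second missed the 1.5-fold limit, and an interaction of 1.09 ± 0.10, edgeR adjusted p = 1.69e-09. The member at chr18:35854342-35854876 in an intron of Cxxc5, a CXXC zinc finger gene, crossed over in the same way with both effects called (-1.33 without and 0.73 with LPS), at low levels of 4.17 ± 1.19, 1.70 ± 0.0897, 2.75 ± 0.484 and 4.56 ± 0.367 CPM (mean ± SD, n = 6) in WT and AhR-KO unstimulated and WT and AhR-KO LPS libraries.

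A list of AhR pathway genes held 33 members in 7 of 8 genes, of which 16 were nearest to Ahr itself, 2 to its partner Arnt and 15 to targets of the receptor, with none at Cyp1a1. Without LPS, 5 were higher and 8 lower in AhR-KO (15.2% and 24.2%, against 9.95% and 12.6% of all tested peaks), and with LPS 3 and 8 (9.09% and 24.2%, against 13.4% and 13.1%). Of the 8 lower without LPS, 7 were nearest to Ahr itself, in the region treated separately below. Ahrr encodes the AhR repressor, itself induced by AhR. Its intronic member at chr13:74259553-74261092 ran from 42.5 to 49.1 (median 44.7) CPM in WT and 29.3 to 32.9 (median 30.7) in AhR-KO unstimulated libraries, and with LPS from 29.8 to 43.3 (median 36.9) and 13.9 to 18.98 (median 15.9). The genotypes did not overlap in either condition, the effect being -0.56 ± 0.07, edgeR adjusted p = 7.78e-08 without LPS, short of the 1.5-fold limit, and -1.18 ± 0.07, edgeR adjusted p = 1.3e-14 with it. A further Ahrr member at chr13:74281969-74283009, named after its values were seen, had log2 fold changes of -1.29 without and -1.42 with LPS. The remaining Ahrr member, at chr13:74301110-74302868, had -0.25 without and 0.32 with LPS, neither of them called.

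The xenobiotic-metabolizing gene Cyp1b1 had the opposite sign to the first pair of Ahrr members. Its members lay at chr17:79781746-79782312 and chr17:79786134-79787164, 66684 and 71072 bp from the TSS, and were named after their values were seen. They were higher in AhR-KO without LPS by 0.74 and 0.76 on the log2 scale. Of 8 members nearest to Tiparp, an AhR-induced ADP-ribosyltransferase, 2 were higher in AhR-KO without LPS, and the one highest per length, at chr3:65515493-65516294, had genotype effects of 0.00 and -0.05. Of 939 members with the AhR motif, 54 were higher (5.75%) and 76 lower (8.09%) in AhR-KO without LPS, beside 8.22% and 6.55% of all members, and this balance turned to 72 higher and 63 lower with relative log expression size factors. All tested peaks with the motif had 7.32% higher and 12.7% lower without LPS, and all tested peaks had 9.95% and 12.6%. With LPS, 38 of the members with the motif were higher (4.05%) and 71 lower (7.56%), beside 6.04% and 6.62% of all members, and more were lower than higher under each scaling. All tested peaks with the motif had 8.56% and 13.5% with LPS, and all tested peaks had 13.4% and 13.1%. Among the 3 AhR-motif members printed above, the Cap1 peak had a genotype effect of -1.31 ± 0.11, edgeR adjusted p = 7.23e-12 without LPS and the Btbd10 peak, in an intron of the clock gene Arntl, of -1.49 ± 0.13, edgeR adjusted p = 2e-11. The Trim8 peak, in an intron of Sufu, was higher in AhR-KO, with 9.41 to 10.4 (median 9.88) CPM in WT and 16.5 to 22.9 (median 20.4) in AhR-KO unstimulated libraries (1.03 ± 0.09, edgeR adjusted p = 3.5e-11), while the genotypes overlapped with LPS.

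Members near Ahr need separate reading, since AhR-KO mice carry 129-derived DNA there and sequence differences and loss of the receptor cannot be told apart in that region. Within 20 Mb of Ahr, which spans chr12:35497974-35535038, 419 members lay, of which 33 were higher and 42 lower without LPS (17.9%, against 14.7% of members elsewhere and 14.2% on the rest of chromosome 12). With LPS the shares were 13.8%, 12.6% and 12.02%. Of the 16 members nearest to the Ahr TSS, 7 were lower and 1 higher in AhR-KO without LPS, and 6 and 1 with LPS. The pair of members with the smallest p among those higher in AhR-KO with LPS lay in this region, at chr12:35246038-35247051 and chr12:35266400-35267636, nearest to the TSS of the sorting nexin gene Snx13. The first ran from 1.96 to 3.58 (median 2.72) CPM in WT and 10.9 to 12.7 (median 11.4) in AhR-KO LPS libraries (2.07 ± 0.11, edgeR adjusted p = 9.54e-17), and the other from 3.96 to 4.95 (median 4.49) and 16.3 to 19.5 (median 18.1) (1.99 ± 0.08, edgeR adjusted p = 4.29e-20). Leaving out all members within 20 Mb left 14.7% of the remaining members called without LPS and 12.6% with LPS.

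The members that held level are the ones for which the name constitutive fits the counts as well as the lists. In 7606 members (24.0%) the 95% interval of each of the 4 fold changes stayed within 1.5-fold, and in 10609 all 24 libraries lay within 1.5-fold of their median. Single comparisons had intervals within that limit in 65.2% (genotype without LPS), 70.9% (genotype with LPS), 48.2% (LPS in WT) and 42.6% (LPS in AhR-KO) of members. The 6 steadiest group means among members of at least 5 CPM were chosen for that steadiness, and are given without a test. Fam49b encodes a Rac1-binding regulator of the cytoskeleton, and the peak at chr15:64023618-64024485 in its intron had group means of 11.5 ± 1.19, 11.5 ± 1.10, 11.6 ± 1.09 and 11.5 ± 1.13 CPM (SD, n = 6) in WT and AhR-KO unstimulated and WT and AhR-KO LPS libraries.

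Apbb1ip, whose product links Rap1 to integrin activation, held a member at chr2:22810900-22811814 with group means of 25.5 ± 3.16, 25.7 ± 1.65, 25.8 ± 2.89 and 25.6 ± 1.91 CPM in the same order. Prkcb encodes protein kinase C beta, and its intronic member at chr7:122459083-122459903 had 14.3 ± 1.60, 14.5 ± 0.724, 14.4 ± 1.39 and 14.5 ± 0.959 CPM. The others lay near Slc16a8, a monocarboxylate transporter gene, Thbs1, which encodes thrombospondin 1, and Zmat2, a splicing factor gene, with folds between group means of 1.01 to 1.02. The Slc16a8 and Thbs1 peaks each held a CTCF and a PU.1 match. Among the 4 CTCF members highest per length, those near Kcna3 (66.6 CPM per kb), Ppp1r21 (57.2) and Rassf7 (56.99) were called in no comparison, while the one in an intron of Specc1l (49.6) was higher in AhR-KO without LPS (0.70 ± 0.06, edgeR adjusted p = 1.14e-11).

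Members were assigned to 9321 genes by the nearest TSS, with a median of 2 members a gene. There were 3572 genes with 1 member, 592 with at least 10 and 83 with at least 20. The most members, 66, fell to Zfp386, in the span chr12:114816850-116054979. This span is the immunoglobulin heavy chain V region, with 78 annotated V segments and pseudogenes, and 41 of the 66 members overlapped one. The gene name is a label for want of a nearer protein-coding TSS, and V segments are similar in sequence, so that their counts are uncertain. With LPS, 1 of these members rose and 18 fell in WT, and 4 rose and 30 fell in AhR-KO, while 12 stayed within 1.5-fold throughout.

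Adgrl2, a latrophilin adhesion receptor gene, had 60 members over a span of chr3:148220740-149846250, of which 2 rose and 28 fell with LPS in WT and 4 rose and 20 fell in AhR-KO. Pde4d, a cAMP phosphodiesterase gene, had 52 members, of which 7 rose and 15 fell in WT and 11 rose and 12 fell in AhR-KO. Cited2, a CBP/p300-binding regulator, had 49, of which 4 rose and 13 fell in WT and 11 rose and 10 fell in AhR-KO. Zfp608, a zinc finger gene, had 44 (2 rose and 12 fell in WT) and Lpp, a focal adhesion gene, had 43 (8 rose and 4 fell). Genotype calls without LPS were 0 to 4 higher and 2 to 10 lower per gene, the most being 10 lower of 66 members for Zfp386. Over all tested peaks, 9.95% were higher and 12.6% lower in that comparison. With LPS, 25.4% of all tested peaks rose and 21.6% fell in WT, and 27.3% and 21.5% in AhR-KO.

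Gene lists chosen for this tissue and treatment gave the following counts, which carry no test of their own. Macrophage lineage and identity factors held 246 members in 17 of 18 genes, with 31 higher and 59 lower with LPS in WT (12.6% and 23.98%, against 25.4% and 21.6% of all tested peaks and 12.9% and 20.9% of all members). The median log2 fold change was -0.16, against -0.01 over all tested peaks and -0.13 over all members. In AhR-KO, 38 were higher and 68 lower (15.4% and 27.6%), so the list was close to the members as a whole. Klf4 and Maf had 33 members each and Runx1 30. The highest Klf4 member per length, at chr4:55655296-55655874, was level at 26.8 ± 0.797, 24.7 ± 2.18, 26.9 ± 3.01 and 26.8 ± 0.688 CPM in WT and AhR-KO unstimulated and WT and AhR-KO LPS libraries, although 11 of the 33 Klf4 members fell with LPS in WT and 4 rose. In genotype, 22 of the 246 members of this list were higher and 10 lower in AhR-KO without LPS, and 17 and 12 with LPS. All tested peaks had 9.95% higher and 12.6% lower without LPS, and 13.4% and 13.1% with LPS.

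LPS signalling and response genes held 120 members in 18 of 21 genes, with 24 higher and 18 lower in WT, or 20% and 15% (median 0.14). All tested peaks had 25.4% and 21.6%, and all members 12.9% and 20.9%. In AhR-KO, 37 were higher and 18 lower (30.8% and 15%, median 0.06), against 27.3% and 21.5% of all tested peaks. More members of the list were higher than lower under each scaling. The most prominent member of Tlr4, the LPS receptor, lay in its intron at chr4:66891295-66892225 and ran from 23.4 to 26.9 (median 25.4) CPM in WT unstimulated and 38.9 to 47.3 (median 44.2) in WT LPS libraries (0.78 ± 0.06, edgeR adjusted p = 4.76e-13), and from 28.5 to 34.6 (median 30.8) and 45.8 to 60.9 (median 50.5) in AhR-KO. The member at chr10:18943188-18943914 near Tnfaip3, which encodes the NF-kB inhibitor A20, went down, from 19.2 to 26.6 (median 22.3) to 9.35 to 16.1 (median 13.2) CPM in WT (-0.80 ± 0.12, edgeR adjusted p = 6.72e-07). Genotype calls among the 120 members of this list were 6 higher and 3 lower without and 5 higher and 3 lower with LPS. Among all tested peaks, 9.95% and 12.6% were called without LPS, and 13.4% and 13.1% with LPS. No member was nearest to Tnf, Cxcl10 or Saa3.

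Eicosanoid synthesis genes, which make prostaglandins and leukotrienes from arachidonic acid, held 61 members in 12 of 13 genes. With LPS, 10 rose and 14 fell in WT (16.4% and 22.95%, against 25.4% and 21.6% of all tested peaks) and 12 rose and 20 fell in AhR-KO (19.7% and 32.8%, against 27.3% and 21.5%), an order that turned in both genotypes with factors computed on the members. In genotype, 3 of the 61 members were higher and 4 lower without LPS and 3 and 5 with LPS. The shares of all tested peaks were 9.95% and 12.6% without LPS, and 13.4% and 13.1% with LPS. Ptgs2 encodes the inducible cyclooxygenase. Of its 9 members, 2 rose and 1 fell with LPS in WT, and 4 rose and 1 fell in AhR-KO. The Ptgs2 member highest per length lay at chr1:150164643-150165967, 64611 bp from the TSS. This peak had 66.9 ± 3.78 CPM in WT unstimulated and 51.2 ± 4.74 in WT LPS libraries, a difference short of 1.5-fold. The member in an intron of Pla2g4a, the phospholipase that releases arachidonic acid, went from 10.8 to 14.5 (median 12.6) to 6.58 to 9.96 (median 8.66) CPM in WT (-0.59 ± 0.10, edgeR adjusted p = 1.92e-06), a fold so near the limit that it was lost under 8 alternatives. The member in an intron of Tbxas1, which encodes thromboxane synthase, fell in AhR-KO (-0.65 ± 0.06, edgeR adjusted p = 6.23e-12) and had -0.55 in WT, under the limit. Of 11 Pla2g4a members, 1 rose and 6 fell in WT, and 1 rose and 4 fell in AhR-KO. Of 8 Tbxas1 members, 3 rose and 0 fell in WT, and 1 rose and 1 fell in AhR-KO. The only member nearest to Ptges, a prostaglandin E synthase gene, rose in both genotypes. Its log2 fold change was 1.45 for WT and 1.82 for AhR-KO.

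Genes of GM-CSF, M-CSF and TGF-β signalling held 75 members in 11 of 12 genes, with 14 higher and 20 lower with LPS in WT (18.7% and 26.7%, against 25.4% and 21.6% of all tested peaks) and 15 and 27 in AhR-KO, of which the WT order turned with factors computed on the members. Tgfbr2, a TGF-β receptor gene, had 23 members, of which 3 rose and 11 fell in WT and 2 and 13 in AhR-KO. An intronic member of Smad3 rose (0.66 ± 0.10, edgeR adjusted p = 3.44e-07 in WT), as did a member nearest to Smad7, an inhibitory Smad, lying in the Dym gene (0.86 ± 0.07, edgeR adjusted p = 1.55e-12). Smad7 had 19 members, with 4 higher and 3 lower in WT and 6 and 4 in AhR-KO. Smad3 had 7, with 1 higher and 0 lower in WT and 1 and 3 in AhR-KO. Loci known for CTCF insulators held 53 members in 6 of 12 genes. In WT 7 were higher and 16 lower (13.2% and 30.2%, against 25.4% and 21.6% of all tested peaks), and in AhR-KO 7 and 20. These members were taken by nearest gene and not by motif. Myc had 30 of them, of which 4 rose and 10 fell in WT. For Myc, the member highest per length, 402033 bp from the TSS, fell in WT (-1.03 ± 0.09, edgeR adjusted p = 1.45e-12). Housekeeping genes held 19 members in 4 of 10 genes. With LPS in WT 4 were higher and 1 lower, where all tested peaks had 25.4% and 21.6%. Ywhaz had 13 of these members, of which 3 rose and 0 fell in WT and 4 rose and 0 fell in AhR-KO. Another Ywhaz member stayed at 17.1 ± 1.75 to 17.8 ± 0.711 CPM over the 4 groups.

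**Figure D5:**
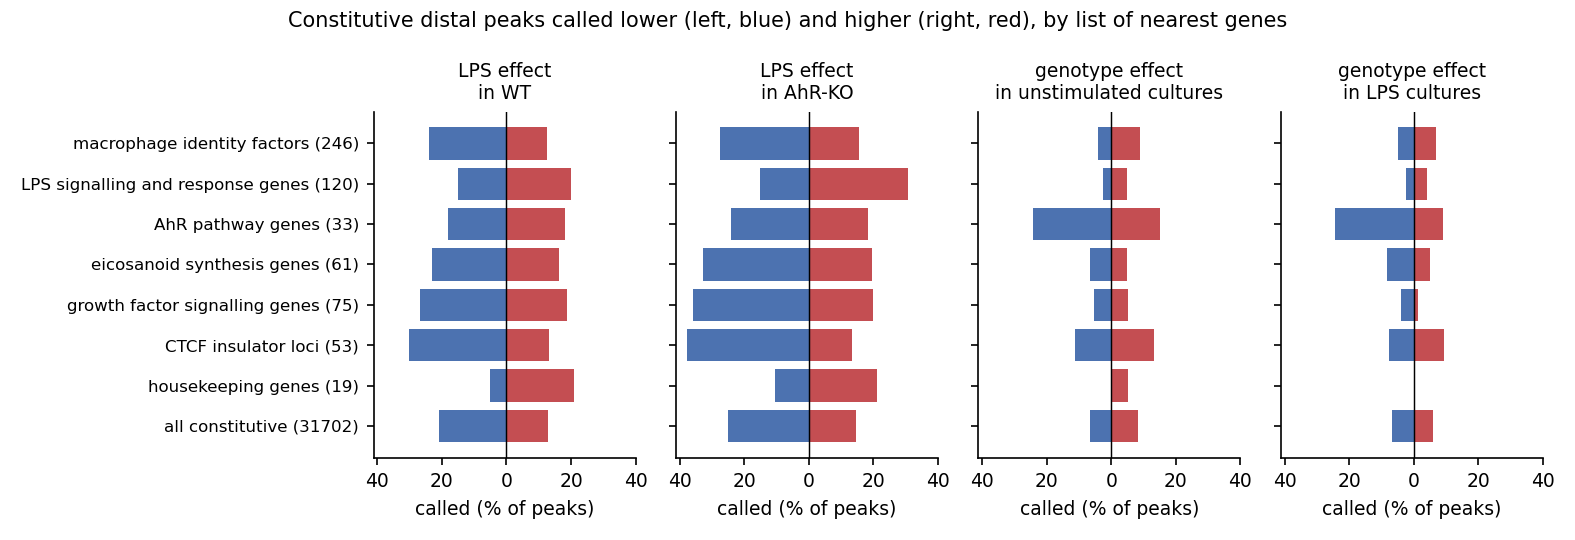
Percent of the constitutive distal peaks of each gene list called higher and lower in the 4 comparisons between 2 groups. With LPS in WT the macrophage list has 31 higher and 59 lower of 246, and the LPS list 24 higher and 18 lower of 120. Each genotype comparison has fewer calls than each LPS comparison in every list but that of the AhR pathway.

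At some genes most members were called one way. These loci were picked after their values were seen, from 2063 genes with at least 5 members, so they are descriptions. Fli1, an ETS factor of blood and vessel cells, had 8 members in chr9:32471990-32610246, of which 6 were lower in AhR-KO with LPS and 0 higher, with a median of -0.77. Sirpa, the inhibitory receptor for CD47 on macrophages, had 6 members, 5 of them higher in AhR-KO without LPS (median 0.70), and Fcgr2b, the inhibitory Fc receptor gene, had 5, of which 4 were higher (median 0.67). Sfi1, a centrosomal gene at the start of the chromosome 11 sequence, had 8 members, of which 7 were lower (median -0.73), and whether its reads are shared with near-identical copies was not tested. With LPS, 5 of 5 members near Rassf9 were higher in AhR-KO (median 0.92) and 5 of 6 near Plekha7 lower (median -0.74). In AhR-KO, LPS lowered 5 of 5 members near Tfeb, a regulator of lysosome genes (median -0.73), and raised 6 of 9 near the interleukin-7 receptor gene Il7r (median 0.92), where 1 fell. Of all tested peaks, 9.95% were higher and 12.6% lower in AhR-KO without LPS, and 13.4% and 13.1% with LPS. LPS raised 27.3% and lowered 21.5% of them in AhR-KO.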

How the data were processed

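ATAC-seq libraries of 24 BMDM cultures were analysed from the files deposited by the authors. The authors ran the nf-core atacseq pipeline (bcl2fastq 2.20.0 for base calls, alignment to mm10, MACS2 for broad peaks in each library alone) and merged all lists into consensus peaks, in which featureCounts gave the deposited raw counts of fragments. The deposited broad peak lists hold the fold enrichment of each entry as a ratio and its q-value as -log10, and only the latter was used beyond positions. No column of authors' comparisons was used, and 0 columns of per-sample values were left out.

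Starts in the count table equal the 0-based starts of the lists. Printed starts are therefore the table's start plus 1, and table lengths count 1 base more than the printed span. The reference sequence was GRCm38, whose chromosome names and lengths were compared with the files. Each peak was assigned to the nearest of 41421 protein-coding TSS positions of 21864 genes (GENCODE vM21 basic).

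Tests of the counts used edgeR 4.0.16 (R 4.3.3), with filterByExpr by group (174193 of 184158 peaks kept, all 31702 members among them), TMM factors (0.976 to 1.04) and a quasi-likelihood fit with the group as the only term over all 24 libraries. P-values were two-sided and adjusted by the Benjamini-Hochberg method over all tested peaks, and a peak was called at an adjusted p no higher than 0.05 where the change also reached 1.5-fold, after the study's methods. Depth was 8.54 to 34.6 M counts a library, and intervals cover the spread between these libraries. The procedure was tested on simulated data. DESeq2 1.42.0, relative log expression size factors, library totals, no filter, the replicate number as a block, other forms of the membership rule and leaving out each library in turn were the alternatives. Factors computed on the members, and counts without members near Ahr, were added after seeing the data. Tables and motif searches used Python 3.11.15, pandas 2.3.3 and numpy 2.4.6.

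The members and lists were chosen with earlier results of these data known. Named members were the 8 highest in CPM per kb, the 3 with the smallest p per direction and comparison among called members whose groups did not overlap (2 for the interaction, without that condition), the 6 steadiest, the 6 genes with most members, the highest member per kb of the 3 genes with most members in each list, the 4 CTCF and 3 PU.1 members highest per kb, the 3 AhR-motif members with the smallest p for genotype without LPS, and those at the thresholds.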

Additional observations from a re-analysis of the deposited data

Results flagged for a closer look

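In 20 of 284 groups of 6 libraries, over the named peaks, 1 library stood apart from its group by the gap test of Dixon. Chance gives about 1 in 20. The high libraries were WT LPS replicate 2 for the peaks near Maf (34.9 CPM), Tbxas1 (16.2 CPM) and Phf19 (64.5 CPM), and WT LPS replicate 1 for Spry2 (6.68 CPM). In AhR-KO LPS cultures they were replicate 5 for Runx1 (40.2 CPM) and replicate 4 for Spry2 (3.25 CPM). Among AhR-KO unstimulated cultures, replicate 5 was high for Pla2g4a (13.6 CPM) and Lyst (10.6 CPM), replicate 3 for Cpb1 (49.3 CPM), replicate 4 for Tgds (6.26 CPM) and replicate 2 for Fam49b (13.6 CPM). Among WT unstimulated cultures, replicate 6 was high for Nrp2 (3.42 CPM), replicate 3 for Dhrs3 (38.8 CPM) and replicate 5 for B3gnt7 (38.2 CPM). The low libraries were AhR-KO LPS replicate 5 for Sox9 (62.9 CPM) and replicate 4 for Nrp2 (13.4 CPM), WT unstimulated replicate 4 for Phf19 (57.3 CPM) and replicate 5 for the Snx13 peak at chr12:35266400-35267636 (5.35 CPM), WT LPS replicate 6 for Papss1 (38.4 CPM) and AhR-KO unstimulated replicate 2 for Plpp3 (49.9 CPM).

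In 17 named peaks the genotype effect differed between unstimulated and LPS cultures by the interaction test of edgeR, at a difference of at least 1.5-fold. The difference, as the log2 effect with LPS minus that without, was positive for Cxxc5 (2.06), Sgms2 (1.09), Rasa2 (1.078), Spry2 (0.998), the Snx13 peak named above (0.91), Sptssa (0.76) and Nrp1 (0.59). It was negative for Dhrs3 (-1.31), Shisa5 (-1.21), Slc15a4 (-1.18), Nrp2 (-1.13), Cpb1 (-1.13), Trim8 (-0.96), B3gnt7 (-0.83), Clec2l (-0.80), Ston2 (-0.66) and Ahrr (-0.63). Adjusted p-values of edgeR ran from 7.31e-13 for Dhrs3 to 0.00243 for Sptssa.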

How the results depend on the processing

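The percent of members called in either direction moved by less than 1.5 times under each alternative that was run. When each library was left out in turn, it ran from 13.4% to 15.6% for genotype without LPS, 11.6% to 13.4% for genotype with LPS, 33.3% to 34.2% for LPS in WT, 39.3% to 40.5% for LPS in AhR-KO and 7.69% to 8.88% for the interaction. Members called in no comparison made up 45.5% to 46.7%, and members with intervals within 1.5-fold 22.6% to 23.9%. With the replicate number as a block, the percent called was 14.7%, 12.7%, 33.8%, 39.8% and 8.41% in the order of the comparisons above. The numbers were not taken as pairs, since the sources do not tie a number to an animal and not every pair of same-numbered libraries had deviations from the group means that correlated above 0.1. The correlations were 0.037 to 0.290 between the WT groups (5 of 6 above 0.1, 4 of 6 libraries best matched with their own number), 0.0038 to 0.171 between the AhR-KO groups (2 and 3 of 6), -0.097 to 0.048 between genotypes without LPS (0 and 2 of 6) and -0.128 to 0.219 with LPS (2 and 1 of 6). The split between directions moved more, for causes not tested. The lower share of calls for genotype without LPS was 44.4%, 33.5% with relative log expression size factors and 33.6% in DESeq2, and that of the interaction was 60.0%, 70.9% and 70.7%. With LPS it was 61.8% in WT and 63.1% in AhR-KO, 50.05% and 51.5% with factors computed on the members, and 72.5% and 75.2% where an entry had to cover 50% of a peak. The last rule left 10452 members, and a limit of 20 kb from a TSS left 20614. Searching whole peaks instead of their centres raised motif shares to 19.9% for CTCF, 20.5% for PU.1, 42.5% for AP-1, 43.0% for C/EBP, 29.1% for RUNX, 14.9% for IRF, 14.5% for NF-kB, 8.94% for AhR and 6.14% for the E-box, since more bases were searched, and CTCF with no mismatch had 2.99%. Of 101 calls of named peaks, 91 were kept under every alternative, and 0 changed sign. The calls lost under at least 1 were the interactions of Ahrr (without WT LPS replicate 1) and Nrp1 (15 alternatives), genotype without LPS for Lyst, and LPS calls of B2m, Clec2l, Cxxc5, Epha4, Pla2g4a and Tbxas1. Low counts limit the weakest members, since the lowest member mean was 1.202 CPM.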

Other observations

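Further loci were noted because most of their members were called one way, chosen after their values were seen and without a test of the locus. Near Epha4, which encodes an ephrin receptor, 5 of 7 members were higher in AhR-KO without LPS, with a median log2 fold change of 0.85 and a range of -0.52 to 1.04. Near Lsm6, which encodes an RNA-binding Sm-like protein, 5 of 7 were lower in AhR-KO without LPS (median -0.77) and 5 of 7 with LPS (median -1.04). Near Sub1, a transcription coactivator gene, 6 of 8 were lower without LPS (median -0.77). With LPS, 4 of 5 members near the netrin receptor gene Unc5c rose in WT (median 1.36) and 4 of 5 in AhR-KO (median 0.81). Near Gm5617, 5 of 6 fell in WT (median -1.03) and 6 of 6 in AhR-KO (median -1.41). Of all tested peaks, 9.95% were higher and 12.6% lower in AhR-KO without LPS, and 13.1% were lower with LPS. LPS raised 25.4% and lowered 21.6% of them in WT, and 27.3% and 21.5% in AhR-KO.

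Among all tested peaks within 20 Mb of Ahr, 31.3% differed between genotypes without LPS and 32.7% with LPS, where the members there had 17.9% and 13.8%. Over all chromosomes, the shares were 22.6% and 26.5% of all tested peaks and 14.8% and 12.7% of all members. Members were thus called less often than all tested peaks there and over the whole set.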
